A study of Mus musculus with 24 samples.

Results

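The genes described here are 8 that restrain NF-kB or modify its action: the IkB family genes Nfkbia, Nfkbib, Nfkbie, Nfkbiz and Bcl3, and Tnfaip3, Tnip1 and Tnip2 of the A20 complex. They were chosen by gene symbol, as all array probes other than controls that carry one of these names, and make up 8 of 30342 gene names on the array. The choice was made with earlier results of these data known. RNA came from DA1-3B cells, a mouse line of the C3H eOuJ strain that carries the Bcr-Abl fusion oncogene, which every group shares, after transfection with plasmids for the NF-kB subunit p65/RelA. The plasmids encoded full-length murine p65 (WT), its mutant D361E that cannot be cleaved, p1-361 from the N-terminal side, p363-549 from the C-terminal side, or the 2 fragments together, and VOID was the empty plasmid. Each group had 4 samples with 1 array each. The protocol starts the C-terminal plasmid 1 residue before the sample names do. All samples come from 1 cell line, the time after transfection and the share of cells that took up a plasmid were not given in the sources used here, and nothing says that the 4 samples of a group were separate cultures, so a p-value here sets a difference against the spread among these samples, which may be technical.

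NF-kB dimers are held in the cytoplasm by IkB proteins until signalling marks the IkB for destruction and frees the dimer to enter the nucleus. Several inhibitors are themselves NF-kB target genes, so that active NF-kB raises the level of its own brakes; Nfkbia and Tnfaip3 are the textbook examples in blood cells. Nfkbia, Nfkbib and Nfkbie encode the cytoplasmic inhibitors IkB-alpha, IkB-beta and IkB-epsilon. Nfkbiz and Bcl3 encode the nuclear proteins IkB-zeta and Bcl-3, which act with p50 or p52 dimers on chromatin. Tnfaip3 encodes A20, a ubiquitin-editing enzyme that shuts down signalling to the IkB kinases, and Tnip1 and Tnip2 encode its binding partners ABIN-1 and ABIN-2.

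The stretches before the transcript starts of the 4 genes whose levels differed among the groups are shown because each holds a match to the kB consensus, the DNA element bound by NF-kB dimers. They come from RefSeq on build GRCm38.p6, where 7 of the 8 genes had an entry. The gene without an entry was Nfkbiz, whose level was not called different among the groups, so its motifs are unknown here. The stretches run 5′ to 3′ in the direction of the gene over the 250 bases before the start. Capitals mark matches to the kB consensus on either strand, and overlapping matches run together.
Nfkbia, chr12:55492648-55492897, minus strand: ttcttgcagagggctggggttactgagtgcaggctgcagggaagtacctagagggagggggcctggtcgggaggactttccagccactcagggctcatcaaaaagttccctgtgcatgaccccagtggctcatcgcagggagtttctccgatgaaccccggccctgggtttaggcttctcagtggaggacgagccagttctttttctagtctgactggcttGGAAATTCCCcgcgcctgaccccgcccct
Nfkbie, chr17:45555450-45555699, plus strand: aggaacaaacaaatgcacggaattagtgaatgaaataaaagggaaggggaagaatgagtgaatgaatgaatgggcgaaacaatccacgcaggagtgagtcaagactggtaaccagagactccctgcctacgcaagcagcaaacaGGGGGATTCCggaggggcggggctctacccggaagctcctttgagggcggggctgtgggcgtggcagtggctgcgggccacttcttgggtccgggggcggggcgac
Tnfaip3, chr10:19015411-19015660, minus strand: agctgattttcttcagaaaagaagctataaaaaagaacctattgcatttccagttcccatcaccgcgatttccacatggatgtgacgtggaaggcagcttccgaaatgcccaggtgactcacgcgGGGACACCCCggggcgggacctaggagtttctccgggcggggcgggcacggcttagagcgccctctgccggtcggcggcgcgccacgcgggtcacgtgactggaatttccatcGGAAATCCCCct
Tnip1, chr11:54962941-54963190, minus strand: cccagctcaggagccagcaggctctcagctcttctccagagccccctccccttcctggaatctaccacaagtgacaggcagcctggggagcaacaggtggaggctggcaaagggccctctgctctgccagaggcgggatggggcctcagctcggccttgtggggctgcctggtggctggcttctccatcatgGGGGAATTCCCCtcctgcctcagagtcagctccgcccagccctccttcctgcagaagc
The match in Nfkbia began 29 bases before the start and lay on the reverse strand. In Nfkbie the match began 106 bases before the start. Tnfaip3 had 1 match that began 125 bases before its start and 1 on the reverse strand that began 12 bases before it, and the window at its other listed start had 0. Tnip1 had 4 overlapping matches at 3 positions, counting both strands, and the first began 58 bases before the start. Over the same window length, 250 bases before and 50 from the start on, 4.51% of 32851 mouse promoters held a kB consensus match. Nfkbib and Tnip2 had 0 matches, and Bcl3 had 1 that lay after its start, 3 bases in on the reverse strand. A relaxed motif, GGGNNNNNCC on either strand, was held by 50.8% of the promoters. It was present in Nfkbia, Nfkbie, Tnfaip3, Tnip1 and Bcl3 and had 0 matches in Nfkbib and Tnip2. A match is a string of letters and not a measured site, and the consensus matches are also matches to the relaxed motif.

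**Figure D1:**
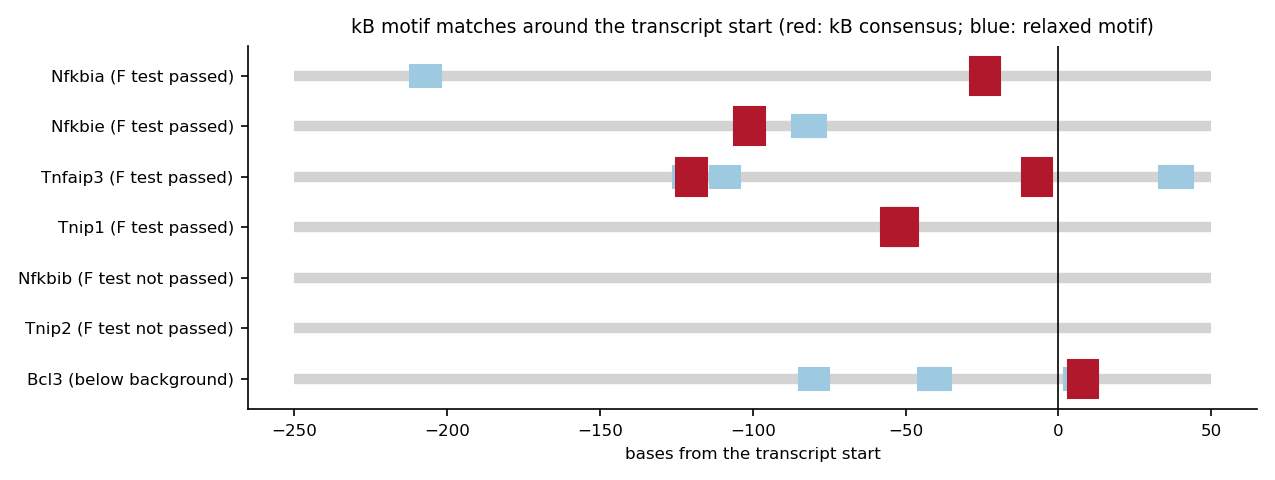
Positions of kB motif matches in the window from 250 bases before to 50 bases after the transcript start (horizontal axis, in bases) for the 7 genes with a RefSeq entry, with kB consensus matches in red and relaxed motif matches in blue. The 4 genes that passed the test across groups each have a consensus match before the start, Nfkbib and Tnip2 have neither kind, and the consensus match of Bcl3 lies after its start. Nfkbiz, which was tested and did not pass, had no entry and is not shown.

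The levels below are processed signals divided by the 75th percentile of the array's own signals, so that 1 is the level of a spot brighter than 75% of the array's spots. Differences are on the log2 scale with limma standard errors, and a gene was called when its Benjamini-Hochberg adjusted p over 15058 genes was below 0.05. Arrays had 49.4% to 55.5% of spots well above background, and the 75th percentile ran from 635.8 to 1214 intensity units. The number of arrays limits the precision. All 6 general blood cell markers were well above background on all 24 arrays, as were 6 of 10 monocyte, 4 of 9 mast cell, 3 of 5 erythroid and 3 of 5 T cell markers, while 5 of 6 markers from outside the blood were not on any. For 21 of 24 arrays the pattern over 200 genes correlated best with the mean of the group named by the label, taken over arrays outside that array's set of 6 consecutive sample numbers. The exceptions were replicate 4 of p1-361, which was closest to p363-549, replicate 4 of p363-549, which was closest to both fragments, and replicate 4 of both fragments, which was closest to p1-361. In that order they correlated at 0.78, 0.97 and 0.71 with the closest group, and at 0.14, -0.55 and -0.09 with their own. Differences of the fragment groups from VOID and WT are therefore given with and without these 3 arrays where the call or the size depends on them. With these arrays left out, the share of all genes called in either direction over VOID was 2.72% in p1-361 against 0.717% with them, 0.915% against 0.584% in p363-549 and 9.72% against 4.46% with both fragments. Calls made in that fit are to be read against these shares. In such bulk samples, fewer cells that express a gene and less RNA per cell cannot be told apart.

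Of the 8 genes, 7 were detected throughout at least 1 group (all 4 arrays well above background) and were tested. A moderated F test across the 6 groups called 4 of these 7, against 2.84% of all genes tested. Because the genes were chosen with earlier results known, that share is not an independent comparison. Tnfaip3 (adjusted p = 8.1e-05), Nfkbia (adjusted p = 0.0028), Nfkbie (adjusted p = 0.0059) and Tnip1 (adjusted p = 0.011) passed, while Nfkbib, Nfkbiz and Tnip2 did not. Without the 3 arrays the same genes passed, at adjusted p = 6.9e-06, 2.3e-05, 2.2e-05 and 0.0048. Under normexp background correction Nfkbie (adjusted p = 0.053) and Tnip1 (adjusted p = 0.099) missed the test. The call of Tnip1 was also lost when slide entered as a fixed block, and without VOID replicate 2 or 4, with adjusted p no higher than the 0.099 already given.

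**Figure D2:**
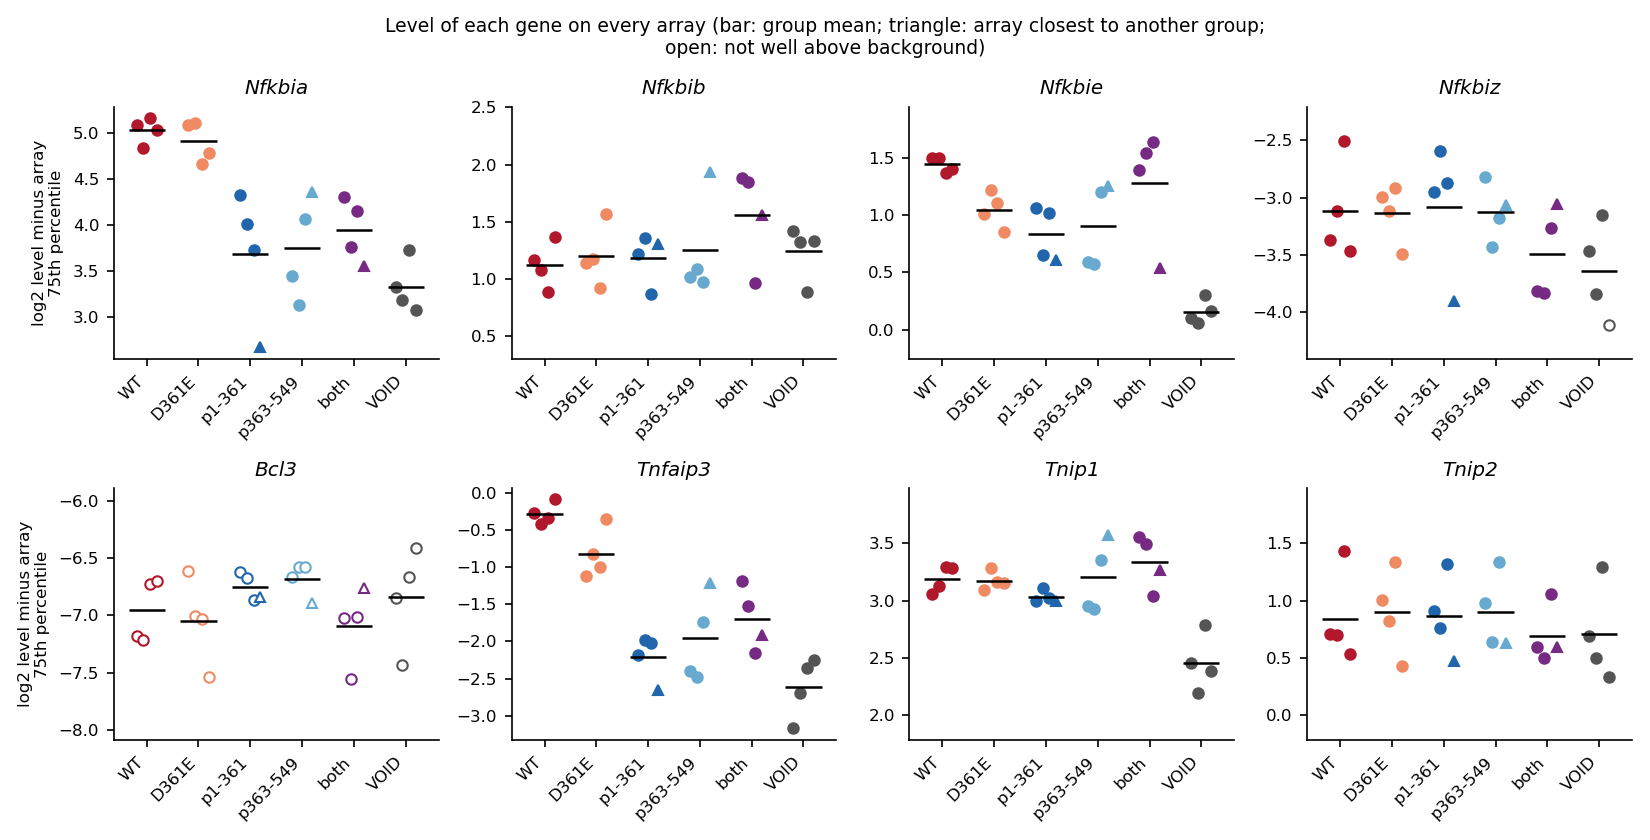
Level of each of the 8 genes on every array (vertical axis, log2 signal minus the array's 75th percentile) in the 6 groups, with group means as bars, the 3 arrays closest to another group as triangles, and values not well above background as open points. Nfkbia and Tnfaip3 are higher on all WT and D361E arrays than on all VOID arrays, and Nfkbie and Tnip1 are higher on all arrays of every construct than on all VOID arrays.

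Tnfaip3 showed the largest difference from VOID of the 7 genes tested in both full-length groups. Its probe lies at chr10:18720776-18720835 on build mm9, on the minus strand, and starts at base 4302 of the transcript. It read 0.827, 0.746, 0.793 and 0.940 times the 75th percentile on the WT arrays, against 0.111, 0.154, 0.194 and 0.211 on the VOID arrays. The D361E arrays gave 0.458, 0.565, 0.499 and 0.780. Every array of both full-length groups was above every VOID array. The p1-361 arrays gave 0.22, 0.253, 0.247 and 0.158, the last being the array closest to another group. The p363-549 arrays gave 0.190, 0.179, 0.30 and 0.431, and again the last and highest was the array closest to another group. Both fragments together gave 0.441, 0.347, 0.224 and 0.266, all above VOID. Levels thus ran from WT through D361E, both fragments, p363-549 and p1-361 to VOID, and of the neighbours in that order only D361E and both fragments did not overlap, with an adjusted p of 0.078 between them.

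Tnfaip3 rose by 2.34 ± 0.27 (SE, n = 4 arrays per group) in WT over VOID, a 5.06-fold change, and by 1.79 ± 0.27 in D361E, with adjusted p = 2.4e-05 and 0.00098. The WT comparison gave 2.27 and 2.75 on the 2 slides that held both groups, and D361E gave 1.12 to 1.70 on 3 slides. The difference from VOID was 0.41 ± 0.27 in p1-361 and 0.66 ± 0.27 in p363-549, both short of the test. With both fragments it was 0.93 ± 0.27 and just missed the test (adjusted p = 0.054). Leaving out the 3 arrays gave 0.56, 0.42 and 1.00, and the last passed (adjusted p = 0.016). It also passed without any 1 of 5 single arrays, namely replicates 2 and 4 of p363-549, replicates 3 and 4 of both fragments and replicate 4 of D361E, with adjusted p between 0.023 and 0.048.

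Nfkbia followed a like order of groups. Its probe spans an intron at chr12:56590945-56591440 on build mm9, on the minus strand. Levels were 34.2, 28.6, 35.8 and 32.9 times the 75th percentile in WT, against 10.1, 9.10, 13.3 and 8.45 in VOID. In D361E they were 34.0, 34.5, 25.4 and 27.7. The full-length groups did not overlap VOID. The fragment groups lay between and overlapped VOID, with 20.2, 16.1, 13.3 and 6.38 in p1-361, the last being the lowest of all 24 arrays and the one closest to another group. The p363-549 arrays gave 10.9, 8.77, 16.8 and 20.6, and both fragments gave 19.8, 13.6, 17.8 and 11.8. The order of the means was WT, D361E, both fragments, p363-549, p1-361 and VOID, and again only D361E and both fragments did not overlap among neighbours (adjusted p = 0.067).

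Nfkbia rose by 1.70 ± 0.29 (SE, n = 4 arrays per group) in WT, a 3.25-fold change, and by 1.58 ± 0.29 in D361E, with adjusted p = 0.0036 and 0.0070. Both calls held in all 37 alternatives. Within slides the differences from VOID were 1.31 and 1.505 for WT and 1.37 to 2.01 for D361E. The fragments differed from VOID by 0.35 ± 0.29 for p1-361, 0.42 ± 0.29 for p363-549 and 0.61 ± 0.29 for both, and 0 of these 3 passed. With the 3 arrays left out the values were 0.69, 0.22 and 0.74, and the last passed (adjusted p = 0.036).

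Nfkbie, by contrast, was above VOID on every array of every construct. Its probe lies at chr17:45700000-45700059 on build mm9, on the plus strand. The WT arrays read 2.82, 2.84, 2.59 and 2.64 times the 75th percentile, against 1.07, 1.04, 1.24 and 1.12 in VOID. The D361E arrays read 2.02, 2.33, 2.15 and 1.81. These groups were tight, with SDs of 0.07 in WT, 0.15 in D361E and 0.11 in VOID on the log2 scale. Levels were 2.09, 1.58, 2.03 and 1.53 in p1-361 and 1.51, 1.49, 2.31 and 2.39 in p363-549. Both fragments gave 2.63, 2.91, 3.11 and 1.45, where the last is the array closest to p1-361 and the other 3 reach or pass the WT range. The means ran from WT through both fragments, D361E, p363-549 and p1-361 to VOID, and only p1-361 and VOID did not overlap as neighbours.

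Nfkbie rose by 1.29 ± 0.20 (SE, n = 4 arrays per group) in WT, 0.89 ± 0.20 in D361E and 1.12 ± 0.20 with both fragments, with adjusted p = 0.0015, 0.040 and 0.0020. The single fragments were higher by 0.68 ± 0.20 for p1-361 and 0.75 ± 0.20 for p363-549 and missed the test (adjusted p = 0.16 and 0.13). Without the 3 arrays both fragments stood 1.37 ± 0.15 above VOID, and p1-361, at 0.76, passed (adjusted p = 0.0082). In that fit p363-549, at 0.64, still missed the test (adjusted p = 0.060). Leaving out only replicate 4 of both fragments brought p1-361 to an adjusted p of 0.041 and p363-549 to 0.021. The D361E call was lost without any 1 of 11 arrays, at adjusted p of 0.054 to 0.17: all 4 of VOID, replicates 1, 2 and 4 of WT, replicates 1 to 3 of D361E and replicate 1 of both fragments. Of 13 settings other than single omissions, the D361E call held in 9. Those that lost it included normexp (adjusted p = 0.19) and slide as a fixed block (adjusted p = 0.12). The call with both fragments was lost when only the arrays compared were fitted (adjusted p = 0.055).

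Tnip1 was likewise above VOID on every array of every construct, with smaller differences. It was read by 2 adjoining probes, the brighter at chr11:54724291-54724350 on build mm9, on the minus strand, whose levels over the 24 arrays correlated at a Pearson r of 0.96. The brighter probe gave 8.31, 8.71, 9.80 and 9.76 times the 75th percentile in WT, against 5.48, 4.58, 6.92 and 5.23 in VOID. In D361E it gave 8.54, 9.73, 8.96 and 8.88. The p1-361 arrays were the tightest group, at 8.00, 8.61, 8.12 and 8.00. The p363-549 arrays gave 7.76, 7.59, 10.2 and 11.9, and both fragments gave 11.8, 11.3, 8.22 and 9.64. Among the constructs all neighbours in the order of levels overlapped, and p1-361, the lowest, did not overlap VOID.

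Tnip1 rose by 0.73 ± 0.15 (SE, n = 4 arrays per group) in WT, 0.72 ± 0.15 in D361E, 0.75 ± 0.15 in p363-549 and 0.88 ± 0.15 with both fragments, with adjusted p = 0.025, 0.021, 0.020 and 0.0014. In p1-361 the difference was 0.58 ± 0.15 (adjusted p = 0.10). The other Tnip1 probe passed in the same 4 comparisons when every probe was tested on its own, with 0.70, 0.66, 0.73 and 0.82. The calls in WT, D361E and p363-549 held in 9, 9 and 8 of 13 settings other than single omissions. They were lost with slide as a fixed block (adjusted p = 0.091, 0.086 and 0.079) and with normexp (0.43, 0.095 and 0.19). They were also lost on the arrays compared alone (0.10, 0.10 and 0.49), where the call with both fragments was lost too (adjusted p = 0.052). Single arrays also ended them, which were VOID replicates 1, 2 and 4 in all 3 comparisons, WT replicates 2 to 4, D361E replicates 2 and 3, and p363-549 replicates 3 and 4, with adjusted p of 0.058 to 0.12. Without the 3 arrays p363-549 stood at 0.62 (adjusted p = 0.072) and both fragments at 0.91 (adjusted p = 0.00059), and p1-361 passed without VOID replicate 3 (adjusted p = 0.046) or p363-549 replicate 4 (adjusted p = 0.048).

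**Figure D3:**
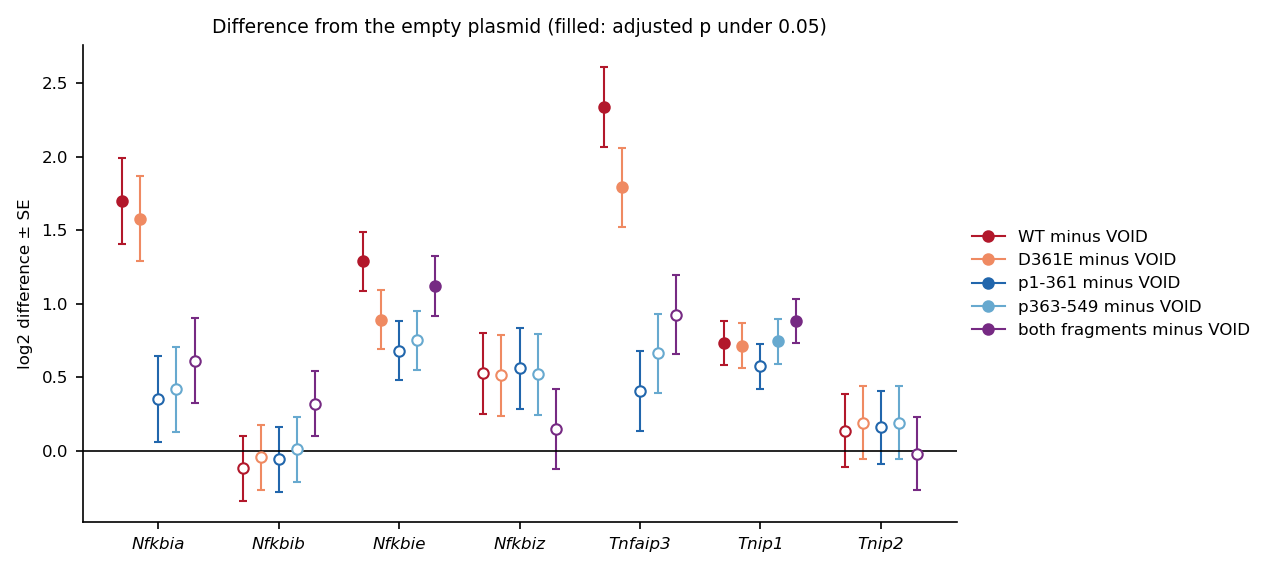
Log2 difference from VOID of the 7 genes tested, with limma standard errors as bars (n = 4 arrays per group), in each of the 5 construct groups, filled where the adjusted p was below 0.05. Nfkbia and Tnfaip3 are filled for WT and D361E, Nfkbie for WT, D361E and both fragments, and Tnip1 for all but p1-361.

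The remaining genes passed no pairwise comparison. Nfkbib was read by 3 probes, the brightest at chr7:29544160-29544219 on build mm9, and its groups all overlapped, with levels of 1.86 to 2.58 in WT, 1.95 to 3.70 with both fragments and 1.86 to 2.68 in VOID. Its highest value, 3.82, was the p363-549 array closest to both fragments. The difference from VOID was 0.32 ± 0.22 with both fragments, with a 95% interval of -0.14 to 0.78, and between -0.12 and 0.01 in the other constructs. The other Nfkbib probes gave 0.43 ± 0.33 and 0.72 ± 0.34 with both fragments, and the latter was well above background on 21 of 24 arrays.

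Nfkbiz, read at chr16:55817859-55817918 on build mm9, was dim. Its levels were 0.0904 to 0.176 in WT, 0.0888 to 0.133 in D361E, 0.0670 to 0.165 in p1-361, 0.0927 to 0.142 in p363-549, 0.0702 to 0.120 with both fragments and 0.0579 to 0.112 in VOID. It was well above background on 3 of 4 VOID arrays and on all others. WT, D361E, p1-361 and p363-549 stood 0.53, 0.51, 0.56 and 0.52 above VOID (SE 0.27 each), with adjusted p of 0.65 to 0.95. With both fragments the difference was 0.15 ± 0.27. The 3 fragment values without the 3 arrays were 0.84 in p1-361, 0.50 in p363-549 and 0.0047 with both fragments, and 0 passed.

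Tnip2 had 2 probes that share 34 bases, the brighter at chr5:34838779-34838838 on build mm9, and gave 1.45 to 2.70 in WT against 1.26 to 2.46 in VOID. Differences from VOID ran from -0.02 to 0.19 (SE 0.25), and the 95% interval for WT was -0.38 to 0.65. Replicate 3 was the highest array in each of the 6 groups. Bcl3, read at chr7:20393826-20393885 on build mm9, was not well above background on any of the 24 arrays. Its processed signal was 4.44 to 9.85 intensity units, and no difference between groups is given.

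Against VOID, the number of genes called higher was 4 of 7 in WT, where 0.239% of all genes were called higher, and 4 of 7 in D361E, where 0.432% were. It was 0 of 7 in p1-361 (0.365% of all genes), 1 of 7 in p363-549 (0.179%) and 2 of 7 with both fragments (1.95%). None of the 7 was called lower in these 5 comparisons; in p1-361, where 0 were called by limma, 2 had an unadjusted p below the threshold. The median difference over the 7 genes was 0.73 in WT, 0.72 in D361E, 0.41 in p1-361, 0.52 in p363-549 and 0.61 with both fragments, beside medians over all genes between -0.04 and 0.03. These 5 comparisons share the VOID arrays, and the genes were chosen with earlier results of these data known, so the shares are not an independent comparison. The summed level of the mast cell markers was 28.7 to 37.8 with both fragments against 49.4 to 74.3 in VOID, that of the monocyte markers was 5.53 to 10.8 against 11.4 to 17.2, that of the erythroid markers 36.4 to 48.9 against 52.3 to 119.5, and that of the general blood cell markers 65.5 to 78.9 against 90.6 to 98.3. That of the T cell markers overlapped VOID, at 1.95 to 4.31 against 2.57 to 4.78. In WT the sum of the erythroid markers was 41.8 to 60.1, so a low value was not particular to both fragments. The mast cell gene Ms4a2 and the erythroid gene Alas2 were not well above background on any array. The part of these markers in the results with both fragments was not tested.

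Against full-length WT, Tnfaip3 was the 1 gene of 7 called in the fragment groups. Tnfaip3 fell by 1.93 ± 0.27 (SE, n = 4 arrays per group) in p1-361, by 1.68 ± 0.27 in p363-549 and by 1.41 ± 0.27 with both fragments, with adjusted p = 0.0012, 0.0062 and 0.013. Every fragment array was below every WT array. In these 3 comparisons 0.126%, 0.146% and 1.06% of all genes were called in either direction. Values within slides were -2.24 to -1.74 for p1-361, -2.30 to -1.31 for p363-549 and -1.57 to -1.25 for both fragments, and without the 3 arrays the differences were -1.78, -1.92 and -1.34, all called. Fitted on the arrays compared alone, the p363-549 comparison missed the test (adjusted p = 0.21).

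Nfkbia was also below WT on every fragment array. It stood at -1.35 ± 0.29 in p1-361, -1.28 ± 0.29 in p363-549 and -1.09 ± 0.29 with both fragments relative to WT, and missed the test at adjusted p = 0.085, 0.12 and 0.083. Without the 3 arrays all 3 differences passed, at -1.01, -1.48 and -0.96 with adjusted p = 0.030, 0.00085 and 0.011. Leaving out only p363-549 replicate 4 also brought all 3 past the test (adjusted p = 0.047, 0.024 and 0.041), p1-361 replicate 4 did so for p363-549 and both fragments (adjusted p = 0.019 and 0.027), and p1-361 replicate 1 for p1-361 (adjusted p = 0.045). Nfkbie was lower than WT by 0.61 on the log2 scale in p1-361, 0.54 in p363-549 and 0.17 with both fragments, and Tnip1 differed from WT by between -0.16 and 0.15. With both fragments the difference of Nfkbie turned to 0.08 when the 3 arrays were left out. None of these differences passed, with or without the 3 arrays.

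The non-cleavable mutant was not distinguished from WT in any of the 7 genes, where 0.0797% of all genes were called in either direction. D361E minus WT was -0.55 ± 0.27 for Tnfaip3 with a 95% interval of -1.11 to 0.01, -0.40 ± 0.20 for Nfkbie with an interval of -0.82 to 0.03, and -0.12 ± 0.29 for Nfkbia with an interval of -0.72 to 0.48. For Tnip1 it was -0.02 ± 0.15 with an interval of -0.33 to 0.30. Nfkbie was lower on every D361E array than on every WT array, and 0 of 7 genes had an unadjusted p below 0.05.

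**Figure D4:**
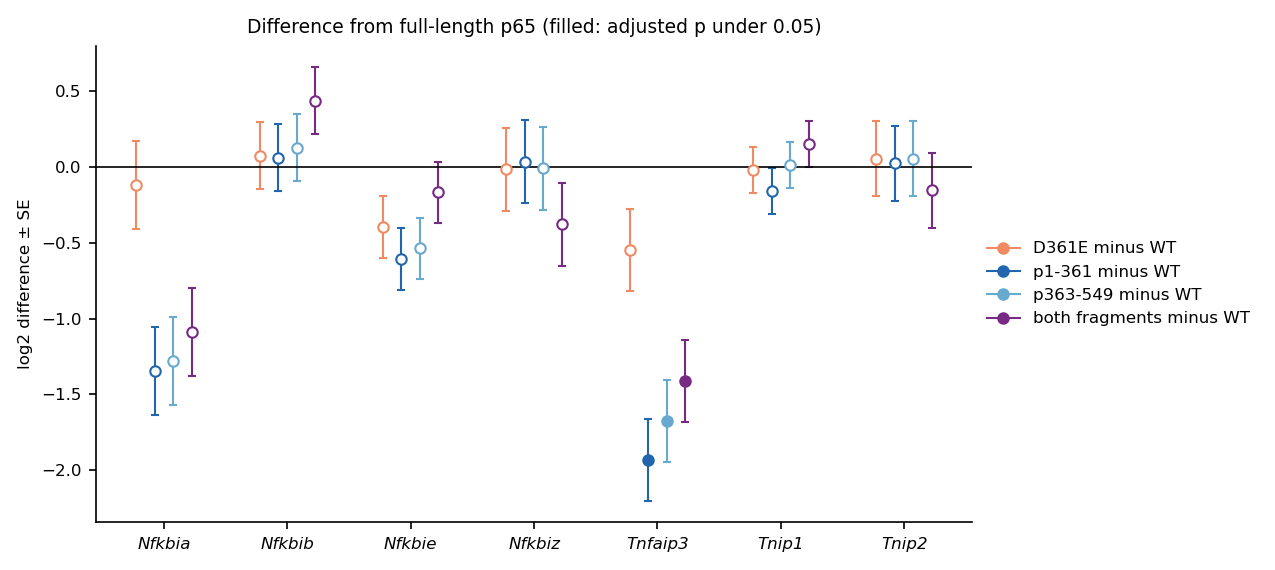
Log2 difference from WT of the 7 genes tested, with limma standard errors as bars (n = 4 arrays per group), for D361E, p1-361, p363-549 and both fragments, filled where the adjusted p was below 0.05. Tnfaip3 is filled for the 3 fragment groups, and Nfkbia lies nearly as far below 0 with open points.

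Among the other pairs, Tnfaip3 was higher in D361E than in p1-361 by 1.38 ± 0.27 (adjusted p = 0.028), the 1 gene of 7 called, where 0.12% of all genes were called higher. That call was lost without any single array of p1-361 or without D361E replicate 2, 3 or 4, with adjusted p of 0.051 to 0.14, with normexp (adjusted p = 0.13) and with slide as a fixed block (adjusted p = 0.22). D361E minus p363-549 was 1.13 ± 0.27 for Tnfaip3 (adjusted p = 0.065) and 1.16 ± 0.29 for Nfkbia (adjusted p = 0.087), and both passed without the 3 arrays (adjusted p = 0.0061 and 0.0016). For this pair 0.571% of all genes were called in either direction with all arrays, and 1.37% without the 3. For Tnfaip3 the single omission of p363-549 replicate 4 (adjusted p = 0.0092) or VOID replicate 1 (adjusted p = 0.049) was enough, and for Nfkbia that of p363-549 replicate 4 (adjusted p = 0.025) or p1-361 replicate 4 (adjusted p = 0.018). Both fragments minus D361E was -0.87 ± 0.27 for Tnfaip3 and -0.97 ± 0.29 for Nfkbia, each short of the test, and Nfkbia passed without the 3 arrays (adjusted p = 0.018). In this comparison 3.9% of all genes were called with all arrays and 10.1% without the 3, so that 1 of 7 is near the background. Without p363-549 replicate 4 Tnfaip3 and Nfkbia both passed (adjusted p = 0.037 and 0.042), as did Nfkbia without p1-361 replicate 4 (adjusted p = 0.024). In the comparisons of p1-361 with p363-549, and of both fragments with either one, 0 of all 15058 genes were called, so that the 0 of 7 says nothing about these genes in particular. Nfkbie was higher with both fragments than in p1-361 by 0.44 ± 0.20 and than in p363-549 by 0.37 ± 0.20. With the 3 arrays left out these were 0.61 and 0.73 and passed (adjusted p = 0.023 and 0.0064), in fits that called 11.9% and 15.4% of all genes, so that 1 of 7 is near the background. They also passed without replicate 4 of both fragments alone (adjusted p = 0.019 and 0.049).

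Additivity of the fragments was taken as both fragments minus each single fragment plus VOID, where 0 means that the changes sum on the log2 scale. It called 0 of the 7 genes, against 0.213% of all genes. The value was -0.16 ± 0.41 for Nfkbia, -0.31 ± 0.29 for Nfkbie, -0.14 ± 0.38 for Tnfaip3 and -0.44 ± 0.21 for Tnip1. Nfkbiz had the largest, -0.93 ± 0.39, the 1 gene with an unadjusted p below 0.05 (adjusted p = 0.31), and without the 3 arrays it was -1.33 ± 0.37 and passed (adjusted p = 0.029). That fit called 1645 of 15305 genes for additivity, and 1 of 7 is near that share.

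Across the 24 arrays, Nfkbia and Tnfaip3 moved most alike, with a Pearson r of 0.89 (Spearman rho 0.90), a description over arrays that share 6 group means. Nfkbie correlated at 0.71 with each of them and at 0.78 with Tnip1. Tnip2 correlated at -0.73 with Nfkbib and at 0.71 with Nfkbiz, and none of these genes passed the F test. In all 6 groups replicate 3 was the highest array for Tnip2 and the lowest for Nfkbib. Outside the set, the genes most like Nfkbia by Pearson r over the 24 arrays were the cytokine gene Lta (0.86), the signalling adaptor gene Traf1 (0.85) and a transcript that the array names only by a clone (0.84). That clone (0.84) was also among the genes most like Tnfaip3, after the cytokine gene Ltb (0.87) and before the adhesion molecule gene Icam1 (0.82). Nfkbie was closest to Limd2 (0.95), Slc39a4 (0.86) and Treml1 (0.84). For Tnip1 the closest were Rela (0.85), Casp4 (0.85) and Kat5 (0.84), but their rank correlations were lower, at 0.60, 0.64 and 0.69.

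Rela itself was read by 1 probe near the 3′ end of its transcript, and whether the plasmid transcripts carry that stretch was not given in the sources used here. It averaged 27.5 ± 1.49 times the 75th percentile in WT, 26.7 ± 2.21 in D361E, 28.0 ± 1.23 in p1-361, 29.3 ± 1.89 in p363-549, 28.9 ± 1.33 with both fragments and 20.9 ± 1.61 in VOID (SD, n = 4). Its rise over VOID was called in p1-361 (0.43 ± 0.10, adjusted p = 0.041), p363-549 (0.49 ± 0.10, adjusted p = 0.016) and both fragments (0.47 ± 0.10, adjusted p = 0.0062), and without the 3 arrays these were 0.40, 0.45 and 0.48, all called. It was 0.40 ± 0.10 in WT and 0.36 ± 0.10 in D361E, short of the test (adjusted p = 0.079 and 0.13).

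Between 0.0797% and 4.46% of all genes were called in either direction in the 9 comparisons with VOID or WT, so that few or no calls are the background for lists of this size. Of the 5 genes for the IkB kinases and related kinases, 0 were called in any of these, and likewise 0 of 5 tested genes of the IkB ubiquitin ligase. In each list 1 of 5, Ikbke and Rbx1, was called with both fragments over VOID when the 3 arrays were left out. The medians over VOID of the ligase genes were 0.05 in WT, -0.09 in D361E and 0.33 with both fragments, and those of the kinases lay between -0.13 and 0.22 over the 5 comparisons. Of 19 other negative regulators tested, which include Cyld, Itch and Tax1bp1, 1 was called in these 9 comparisons: N4bp1 fell by 0.54 ± 0.15 with both fragments (adjusted p = 0.041), and by 0.53 without the 3 arrays. That is 1 of 19 where 4.46% of all genes were called. Without the 3 arrays 1 of 19, Zc3h12a, was called higher in D361E over VOID, where 1.59% of all genes were called. Zc3h12a was well above background on 4 of 4 D361E arrays and on 0 of 4 VOID arrays. The median of that list was 0.05 in WT, 0.05 in D361E and 0.02 with both fragments, beside -0.04, -0.02 and -0.01 over all genes.

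Counts of NF-kB subunit genes called are given side by side, and their difference was not tested. Of all genes, 0.239% were called higher over VOID in WT, 0.432% in D361E and 1.95% with both fragments, where 2.51% were called lower. Without the 3 arrays 1.25% were called in either direction in WT and 9.72% with both fragments. With WT and with D361E 0 of 4 tested subunit genes passed against VOID. With both fragments all 4 rose, Relb by 1.73 ± 0.35, Nfkb2 by 1.04 ± 0.26, Nfkb1 by 0.75 ± 0.20 and Rela as above, with adjusted p = 0.0053, 0.023, 0.039 and 0.0062. With the 3 arrays left out all 4 were again called with both fragments, with Relb at 2.01, and 2 of 4, Rela and Relb, were called in WT over VOID. Of 24 other NF-kB target genes tested, 3 rose in WT and 0 fell, and 2 rose in D361E and 0 fell. Without the 3 arrays 4 rose and 1 fell in WT, and 3 rose and 0 fell in D361E. The added rise was that of Traf1 in both, and the fall in WT was that of the chemokine gene Ccl3. With all arrays Ccl3 stood at -1.42 ± 0.44 in WT over VOID (adjusted p = 0.31) and at 1.00 ± 0.44 in D361E (adjusted p = 0.67). Ltb rose by 1.45 ± 0.24 in WT and 1.57 ± 0.24 in D361E, and Lta, which was well above background on only 1 of 4 VOID arrays, by 2.76 ± 0.47 and 2.42 ± 0.47. Ebi3, a cytokine subunit gene, rose by 1.37 ± 0.30 in WT. With both fragments 6 rose and 4 fell, and the largest changes were falls: the chemokine gene Ccl4 fell by 3.78 ± 0.71, the chemokine receptor gene Ccr7 fell by 2.75 ± 0.67 and the chemokine gene Ccl5 fell by 2.55 ± 0.35. Leaving out the 3 arrays, these were -4.55, -3.36 and -2.43, and 8 of 24 rose and 5 fell. Ccl3 was also called lower, but was well above background on 0 of 4 arrays with both fragments. Single fragments had calls too. Over VOID, Ebi3 rose and Ccl5 fell in p1-361, and Ebi3 rose and Ccl3 and Ccl5 fell in p363-549. Ccl3 was well above background on 0 of 4 p363-549 arrays. Ebi3 also rose with both fragments. Without the 3 arrays 2 of 24 rose and 2 fell in p1-361, and 0 rose and 2 fell in p363-549, where Ebi3 and Ccl5 were not called. Of all genes, 0.717% were called in p1-361 and 0.584% in p363-549 with all arrays.

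**Figure D5:**
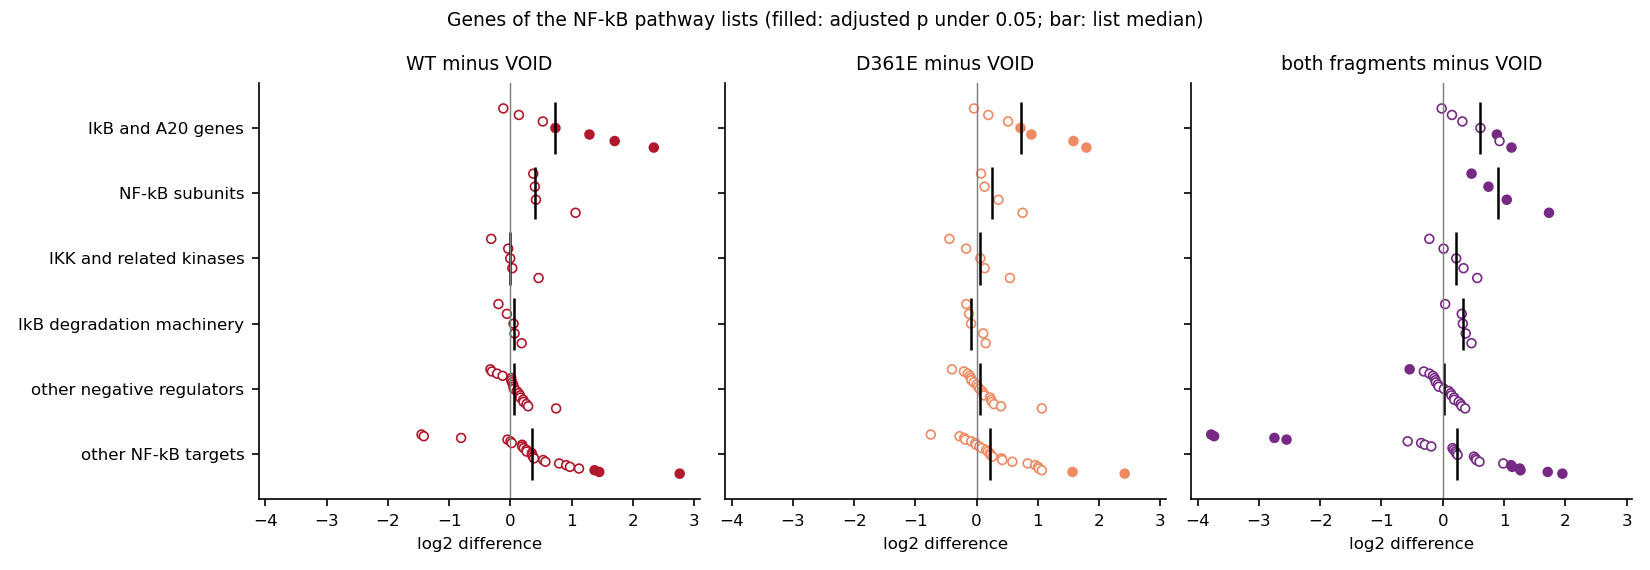
Log2 difference from VOID (horizontal axis) of each tested gene in the IkB and A20 set and in 5 NF-kB pathway lists (rows), in WT, D361E and both fragments, filled where the adjusted p was below 0.05, with list medians as bars. The IkB and A20 genes include 4 filled points in WT and D361E, while the kinases and the degradation machinery have none in any of the 3 panels.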

How the data were processed

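The 24 one-colour (Cy3) arrays were scanned and read with Agilent Feature Extraction 10.7.3.1, per the submitters' processing notes and the file headers. Each deposited file gives, per spot, the intensity after that software's background subtraction on a linear scale, with no scaling between arrays, beside other quality marks, per the file headers. The deposited series table held the same intensities (largest difference 0). Here, log2 intensity minus each array's 75th percentile over non-control spots was used. The 185 to 312 spots per array flagged as uneven or as population outliers were left out, and 0 were saturated. A probe was kept if some group had it well above background on 4 of 4 arrays (19522 probes), and each of 15058 genes, named by RefSeq accession or else by the array, was read from its brightest probe. limma 3.58.1 in R 4.3.3 (with statmod 1.5.0) fitted 1 mean per group to all 24 arrays (18 residual and 3.06 prior degrees of freedom), with 2-sided tests and Benjamini-Hochberg adjustment within each comparison. The fit was tested on simulated data.

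Genes named in the text are the 8 members, Rela, the 3 genes most like each member that passed the F test, and called genes of the pathway lists, at most 4 per list and comparison by size. The members and lists were chosen with earlier results of these data known. Alternatives were normexp (offset 50), quantile normalization, the 75th percentile over probes detected on all arrays, no or a stricter filter, the series table, slides (from the headers) as a fixed or random block, sets of consecutive sample numbers as a block, a fit to the compared arrays only, averaging the probes of a gene, a trended and robust prior, the 3 arrays left out, and each array left out. Replicate numbers follow sample order and so equal the sets of consecutive sample numbers. The labels do not say that these sets share a culture or day, so the set entered only as an alternative block. Promoter sequences are RefSeq's, and probe positions are on build mm9 per the file headers.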

Additional observations from a re-analysis of the deposited data

Results flagged for a closer look

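In 42 sets of 4 arrays (7 genes in 6 groups), 1 array stood apart from the rest of its group by Dixon's test at the 95% level, where chance alone picks about 1 in 20. Nfkbib in p363-549 replicate 4 had a log2 level of 1.94, against 0.98 to 1.09 on the other 3 arrays of that group. The gap to the nearest array was 0.88 of the group's range, past the limit of 0.83 for 4 samples. It is the p363-549 array whose overall pattern was closest to both fragments, a group in which Nfkbib ran from 0.96 to 1.89. The cause was not tested.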

How the results depend on the processing

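The number of genes called was recomputed in 142 cases under other settings and stayed within 1.5 times in 122. With normexp it was 2 in D361E over VOID, 0 in p363-549 over VOID and 2 in the F test. Without the filter it was 2 and 0 in D361E and p363-549 over VOID, and with slide as a fixed block also 2 and 0. Quantile normalization gave 1 in p1-361 over VOID. With sets of sample numbers as a block, which is also the replicate block, it was 1 in p1-361 over VOID and 2 in both fragments against WT. On the arrays compared alone, 0 were called in p363-549 over VOID, in both fragments over VOID and in p363-549 against WT, with fewer samples behind the spread. Without the 3 arrays, the counts over VOID were 1 in p1-361, 0 in p363-549 and 4 with both fragments, where 2.72%, 0.915% and 9.72% of all genes were called. Against WT they were 2 in each fragment group (0.758%, 0.758% and 5.69%), and additivity gave 1 (1645 of 15305 genes). With 1 array left out, counts ran from 3 to 4 in WT, 2 to 4 in D361E, 0 to 1 in p1-361, 0 to 2 in p363-549 and 2 to 3 with both fragments over VOID, from 1 to 2 in each fragment group against WT, and from 3 to 4 in the F test. None of the 30 differences called under at least 1 setting changed sign in 1109 values. These differences were picked for being called, and 24 of up to 37 values for each leave out only 1 array. A change of sign was therefore unlikely from the start. The sets shift some genes in every group: in set 3, Tnip2 was highest and Nfkbib lowest in all 6 groups. The cause of these shifts was not tested. Dim probes limit Nfkbiz and Bcl3.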
